A study of Mus musculus with 4 samples.

Results

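The Gimap genes, which encode GTPases of immunity-associated proteins, were described across 4 populations of mouse CD4+ CD8- thymocytes. All 8 of them that were asked for (Gimap1 and Gimap3 to Gimap9) were found by gene symbol in the platform annotation, on 11 probe sets, out of 18193 genes on 34958 probe sets with 1 gene each. The rule for membership uses gene symbols alone. Gimap4, Gimap6 and Gimap7 had more than 1 probe set, and the one with the highest mean over the 4 arrays is called the main probe set of a gene.

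Each population was measured once on an Affymetrix mouse 430 2.0 array, so the study held 4 arrays. Females of 6 to 8 weeks were sorted on magnetic beads and then by flow cytometry, and all were on a C57BL/6 background crossed from 129/Sv. Foxp3-fusion cells were the GFP+ cells of Foxp3(gfp/gfp) mice, whose Foxp3 alleles both encode GFP joined to Foxp3, the transcription factor of regulatory T cells. Foxp3-null cells were the GFP+ cells of Foxp3(gfpko/wt) mice, which carry 1 GFP-tagged knockout allele beside a wild-type allele. Foxp3 is X-linked, so GFP marks the cells of these females that use the knockout allele. The GFP- CD25+ and the GFP- CD25- cells also came from Foxp3(gfp/gfp) mice, and in these the fusion allele was carried but no GFP was seen. Backcrossing had reached generation 2 in the mice of the Foxp3-null array and generations 4 to 6 in the others. Genotype, backcross and array cannot be told apart in any comparison with Foxp3-null cells. The female Foxp3(gfpko/wt) mouse still holds cells that use the wild-type allele, so its thymus is not that of an animal without Foxp3. No source used here says whether cells of several animals were pooled. With 1 array per population there was no replicate error, and no value below carries a test or a p-value. A difference is called 2-fold when it reaches 1 on the log2 scale, and this is a rule of size only.

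Gimap proteins share a GTP-binding domain of a kind found in vertebrates and in plants, and their genes lie side by side in the mouse and human genomes. They are used mostly in lymphocytes and help naive T cells to survive. Gimap1, Gimap3 and Gimap5 have hydrophobic ends that hold them in intracellular membranes, and loss of Gimap5 in rats or mice leaves the animals short of T cells. Several members are known to be switched on as thymocytes pass positive selection and mature.

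In the RefSeq annotation of assembly GRCm38.p6 the 8 genes spanned 123.7 kb of chromosome 6, from position 48647186 to 48770851, and no other protein-coding gene was annotated between them. Gimap8 (48647186 to 48660875), Gimap9 (48676121 to 48679116), Gimap4 (48684578 to 48692062), Gimap7 (48718621 to 48724636), Gimap1 (48739047 to 48743795) and Gimap5 (48746197 to 48754200) lie on the plus strand. Gimap6 (48701583 to 48708244) and Gimap3 (48764464 to 48770851) lie on the minus strand. The span of Gimap9 overlaps a long non-coding RNA gene, Gm46958, and whether the Gimap9 probe set also reads that gene was not checked. The annotation lists the symbol Gimap5 among older names of Gimap3, and probe sets of these 2 neighbours may share targets.

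The promoters of Gimap7, Gimap1, Gimap6 and Gimap3 are shown because these genes passed 2-fold on their main probe sets in at least 1 pair of arrays and had the widest ranges by main probe set. Each is the 250 bases that precede the annotated start, read 5' to 3' on the strand of the gene, from RefSeq, GRCm38.p6. Gimap7 is chr6:48718371-48718620 (plus strand), Gimap1 is chr6:48738797-48739046 (plus strand), Gimap6 is chr6:48708245-48708494 (minus strand) and Gimap3 is chr6:48770852-48771101 (minus strand). Capitals mark matches, on either strand, to the letters of 4 motifs: GGAAGT (ETS), TGNGGT (RUNX), GTAAACA (forkhead, the family of Foxp3) and CCNCNCCC (KLF).
Gimap7: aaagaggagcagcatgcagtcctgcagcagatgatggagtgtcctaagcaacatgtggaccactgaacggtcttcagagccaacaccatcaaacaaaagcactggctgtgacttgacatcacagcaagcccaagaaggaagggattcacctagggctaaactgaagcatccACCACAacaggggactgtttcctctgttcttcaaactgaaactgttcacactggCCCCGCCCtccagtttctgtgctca
Gimap1: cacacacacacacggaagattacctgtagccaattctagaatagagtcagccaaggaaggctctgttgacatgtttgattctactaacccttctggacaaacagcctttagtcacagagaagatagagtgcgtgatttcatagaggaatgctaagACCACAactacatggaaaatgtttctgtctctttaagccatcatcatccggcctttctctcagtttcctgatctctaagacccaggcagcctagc
Gimap6: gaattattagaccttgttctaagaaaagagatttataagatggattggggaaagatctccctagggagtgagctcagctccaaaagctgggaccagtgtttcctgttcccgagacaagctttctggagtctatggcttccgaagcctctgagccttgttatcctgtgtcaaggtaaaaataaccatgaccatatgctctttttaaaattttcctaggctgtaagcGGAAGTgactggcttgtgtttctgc
Gimap3: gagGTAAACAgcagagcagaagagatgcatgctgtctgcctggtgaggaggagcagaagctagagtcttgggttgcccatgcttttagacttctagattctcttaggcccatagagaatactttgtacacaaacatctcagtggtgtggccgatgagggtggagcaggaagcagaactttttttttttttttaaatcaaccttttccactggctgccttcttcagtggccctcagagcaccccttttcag

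RUNX letters were found upstream of 6 of the 8 genes (Gimap8, Gimap9, Gimap4, Gimap7, Gimap1 and Gimap5), against 40.1% of 32851 promoters of the same length. KLF letters were found upstream of 4 genes (Gimap8, Gimap9, Gimap4 and Gimap7), against 45.9% of promoters, and in Gimap9 they fell within a run of G that gives overlapping matches. ETS letters were found upstream of Gimap6 and Gimap5, against 19.7%. Forkhead letters were found upstream of Gimap3 alone among the 8, near the far end of the window, against 3.17% of all promoters. Gimap8 has 2 annotated starts whose windows overlap, and a gene was counted when either window held the letters. A match is a description of letters and not a site of binding.

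All 11 Gimap probe sets were above the floor of 4.87 log2 on all 4 arrays. The floor is a 90th percentile over probe sets of genes of unrelated tissues, and 4 of the 34 such genes found exceeded it on some array. Mbp, which thymocytes can express, did so on all 4 and may have raised the floor. Of the 5 protein-coding genes on each side, 8 were on the array, and 6 of these lay at or under the floor in all 4 populations. Lrrc61 read 5.33 log2 in Foxp3-fusion, 5.43 in Foxp3-null, 5.40 in GFP- CD25+ and 5.24 in GFP- CD25- cells, so it was close to the floor and nearly level. Tmem176b was above the floor in GFP- CD25+ cells only, at 5.38 log2. The RNA of these bulk samples cannot tell fewer cells of a kind from less RNA per cell.

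**Figure D1:**
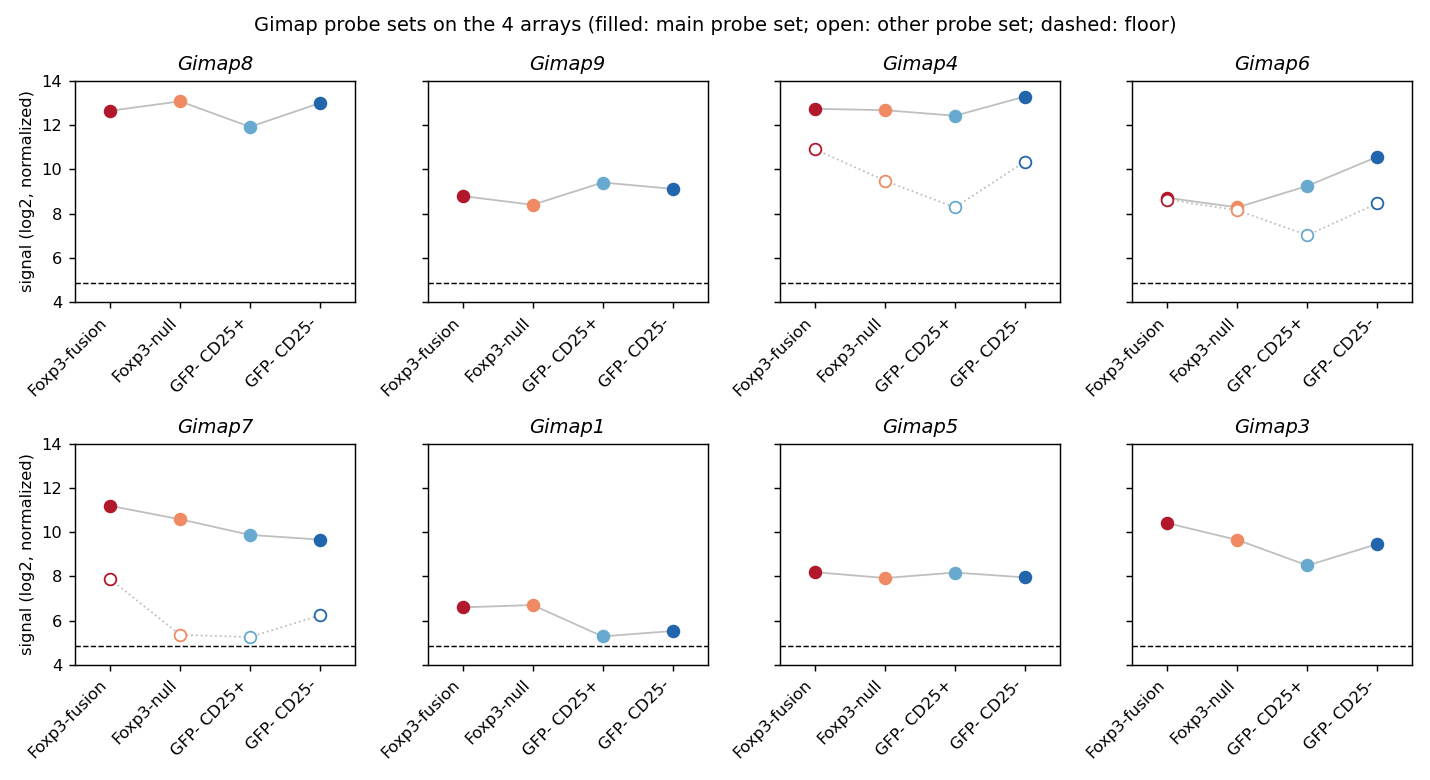
Normalized signal (log2, y axis) of each Gimap probe set on the 4 arrays (x axis). Filled points are the main probe set, open points the other probe set of Gimap4, Gimap6 and Gimap7, lines join the values of a probe set, and the dashed line is the floor of 4.87 log2; Gimap5 is nearly level, while Gimap3 and the open points of Gimap4 and Gimap6 dip in GFP- CD25+ cells.

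Among the membrane-anchored members, Gimap5, whose product keeps resting T cells alive, was the most even gene of the family. Its signal was 8.19 log2 in Foxp3-fusion, 7.93 in Foxp3-null, 8.17 in GFP- CD25+ and 7.95 in GFP- CD25- cells. The whole range was 0.26 log2, and 96.6% of the 6016 genes above the floor on all arrays had a wider one, their median range being 0.89. Without replicates it cannot be said whether any of these 4 values differ.

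Gimap3, a close relative of Gimap5, was uneven. It read 10.41 log2 in Foxp3-fusion, 9.65 in Foxp3-null, 8.49 in GFP- CD25+ and 9.46 in GFP- CD25- cells. Foxp3-fusion cells were thus the highest and GFP- CD25+ cells the lowest, with Foxp3-null and GFP- CD25- cells 0.19 log2 apart between them. Over GFP- CD25+ cells, Gimap3 was up 3.76-fold in Foxp3-fusion cells and 2.22-fold in Foxp3-null cells. Set against GFP- CD25- cells, Foxp3-fusion cells were 1.93-fold higher, just under 2-fold, and GFP- CD25+ cells were 1.95-fold lower. The range of 1.91 log2 exceeded that of 91.7% of genes.

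Gimap1, which mature B and T cells need to survive, split the GFP+ from the GFP- populations. Its signal was 6.60 log2 in Foxp3-fusion and 6.70 in Foxp3-null cells, against 5.28 in GFP- CD25+ and 5.53 in GFP- CD25- cells. Over GFP- CD25- cells the difference was 2.10-fold in Foxp3-fusion and 2.26-fold in Foxp3-null cells. Set against GFP- CD25+ cells it was 2.48-fold in Foxp3-fusion and 2.68-fold in Foxp3-null cells. Both GFP- values were not far above the floor. With values as deposited the order within the GFP+ pair changed, at 6.92 in Foxp3-fusion against 6.42 in Foxp3-null cells, and Foxp3-null cells then stood 0.86 log2 above GFP- CD25- cells, under 2-fold. With the floor 1 log2 unit higher, every 2-fold difference of Gimap1 fell below 2-fold, to 0.73 log2 for Foxp3-fusion and 0.84 for Foxp3-null cells over either GFP- population.

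Gimap7, which lacks such an anchor, was highest in Foxp3-fusion cells on both of its probe sets. The main one read 11.19 log2 in Foxp3-fusion, 10.58 in Foxp3-null, 9.87 in GFP- CD25+ and 9.66 in GFP- CD25- cells. The other read 7.88, 5.36, 5.25 and 6.24 log2 in the same order. Over GFP- CD25- cells, Foxp3-fusion cells had 2.88-fold more Gimap7 signal on the main probe set and 3.11-fold more on the other. Foxp3-null cells were placed differently by the probe sets, at 0.92 log2 above GFP- CD25- cells on the main one and -0.89 log2 on the other. The excess of Foxp3-fusion over Foxp3-null cells was accordingly 1.52-fold on the main and 5.74-fold on the other.

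Gimap6, which takes part in autophagy, gave the widest range of the family on its main probe set. That probe set read 8.72 log2 in Foxp3-fusion, 8.28 in Foxp3-null, 9.26 in GFP- CD25+ and 10.57 in GFP- CD25- cells. Below GFP- CD25- cells it lay 3.63-fold in Foxp3-fusion, 4.89-fold in Foxp3-null and 2.50-fold in GFP- CD25+ cells. The other probe set did not show the drop in GFP+ cells, with 8.64 log2 in Foxp3-fusion, 8.15 in Foxp3-null, 7.02 in GFP- CD25+ and 8.47 in GFP- CD25- cells. On it Foxp3-fusion cells were 0.17 log2 above and Foxp3-null cells 0.32 log2 below GFP- CD25- cells. The probe sets were therefore 2.03 log2 apart for Foxp3-fusion over GFP- CD25- cells, a wider gap than in 98.2% of the 2062 genes with a pair of probe sets above the floor. The probe sets were close for GFP- CD25+ cells, which lay below GFP- CD25- cells by 2.50-fold on the main and 2.73-fold on the other. They were also close for Foxp3-fusion over Foxp3-null cells, at 0.43 and 0.49 log2.

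Gimap4, which speeds the death of T cells once it has been triggered, also depended on the probe set. The main one, whose identifier marks it as able to match more than 1 transcript, read 12.75 log2 in Foxp3-fusion, 12.68 in Foxp3-null, 12.43 in GFP- CD25+ and 13.30 in GFP- CD25- cells. All its differences were under 2-fold. The other probe set read 10.91, 9.49, 8.28 and 10.36 log2 in the same order, a range of 2.63 log2 against 0.87 on the main one. On it Foxp3-fusion cells were 6.20-fold and Foxp3-null cells 2.31-fold above GFP- CD25+ cells, and GFP- CD25+ cells were 4.22-fold below GFP- CD25- cells. Both probe sets were lowest in GFP- CD25+ cells. They differed in sign for Foxp3-fusion over GFP- CD25- cells, at -0.55 log2 on the main and 0.56 on the other.

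**Figure D2:**
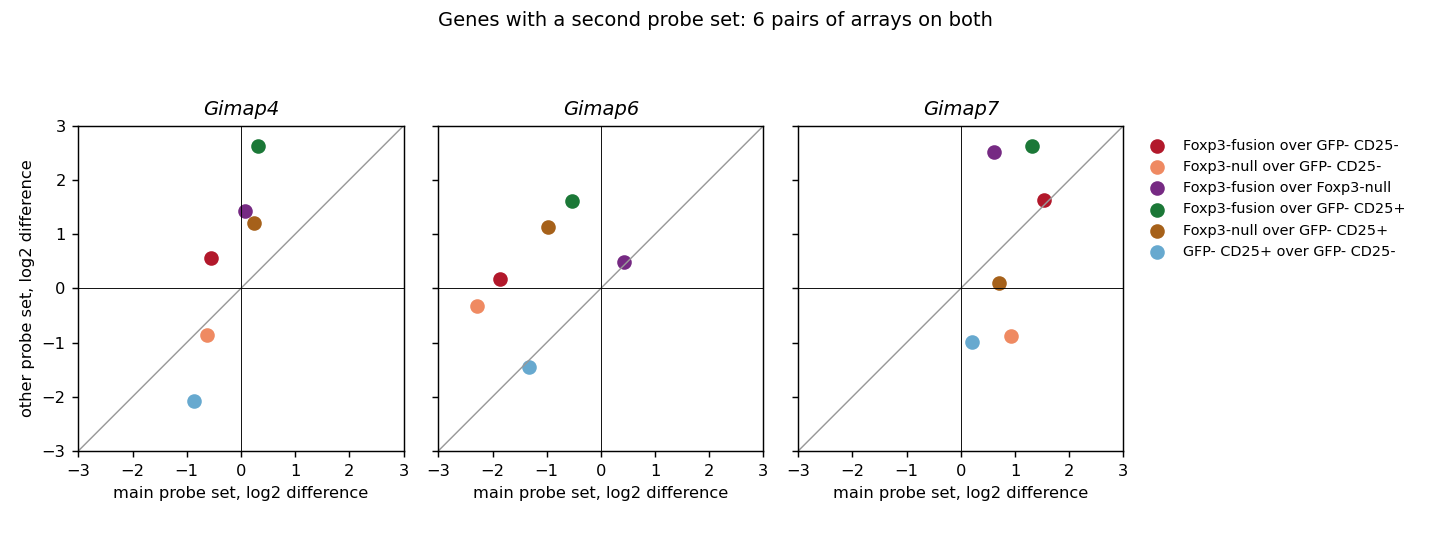
Log2 difference of each of the 6 pairs of arrays on the main probe set (x axis) and on the other probe set (y axis) of Gimap4, Gimap6 and Gimap7; the grey diagonal is equality. Gimap6 lies on the diagonal for Foxp3-fusion over Foxp3-null and for GFP- CD25+ over GFP- CD25- cells and about 2 log2 off it for the other pairs.

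Gimap8, a large member built of repeated GTPase domains, was lowest in GFP- CD25+ cells. Its signal was 12.66 log2 in Foxp3-fusion, 13.08 in Foxp3-null, 11.93 in GFP- CD25+ and 13.01 in GFP- CD25- cells. GFP- CD25+ cells were 2.11-fold below GFP- CD25- cells, and Foxp3-null cells were 2.22-fold above GFP- CD25+ cells. Gimap9 ran the other way, at 8.80 log2 in Foxp3-fusion, 8.40 in Foxp3-null, 9.41 in GFP- CD25+ and 9.12 in GFP- CD25- cells. It was highest in GFP- CD25+ and lowest in Foxp3-null cells, which were 2.01-fold apart, and its other differences were under 2-fold.

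Foxp3-fusion cells over GFP- CD25- cells set regulatory T cells beside other CD4 thymocytes of like mice, and the Gimap genes did not move as a block there. Gimap7 and Gimap1 were at least 2-fold higher, Gimap6 at least 2-fold lower on its main probe set, and the other 5 genes under 2-fold. Of all 6942 measured genes, 10.5% passed 2-fold upward and 5.81% downward. The median over the 8 genes was -0.04 log2, with 4 above and 4 below 0, and the median of all measured genes was also -0.04. Along the chromosome, Gimap8, Gimap9, Gimap4 and Gimap6 read lower on their main probe sets, whereas Gimap7, Gimap1, Gimap5 and Gimap3 read higher, but the other probe sets of Gimap4 and Gimap6 were higher, at 0.56 and 0.17 log2.

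Foxp3-null cells over GFP- CD25- cells gave a similar mixture. Gimap1 passed 2-fold upward, and Gimap6 passed it downward on its main probe set, against 10.6% and 7.62% of all measured genes. The median over the 8 genes was 0.02 log2, against 0.22 for all measured genes. With values as deposited the 8-gene median was -0.29, no Gimap gene was at least 2-fold higher, and Gimap9 joined Gimap6 as at least 2-fold lower at -1.07 log2. Of all measured genes, 367 were then at least 2-fold higher and 894 lower, against 758 and 544 on the normalized scale. This comparison and that of Foxp3-fusion over GFP- CD25- cells share the GFP- CD25- array, so a likeness of their values is not independent.

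**Figure D3:**
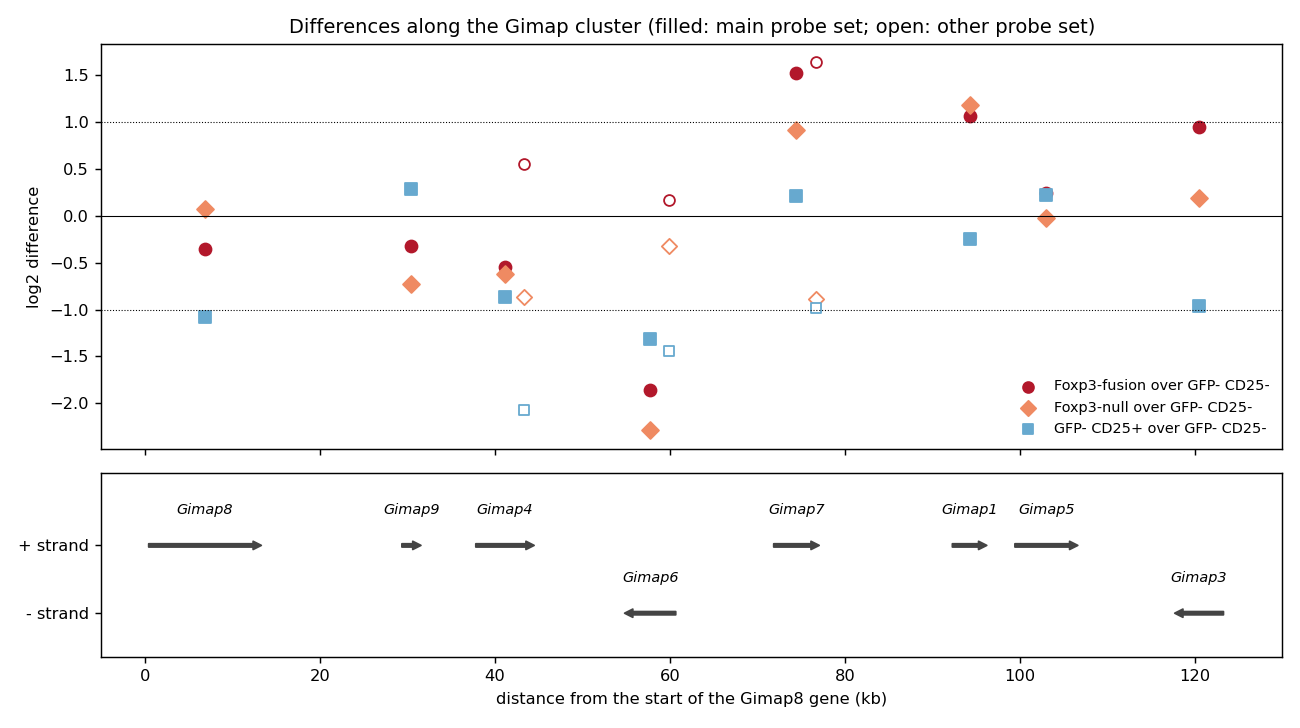
Log2 difference of each Gimap gene over GFP- CD25- cells (upper panel, y axis) at its place in the cluster, and the genes as arrows in their direction of transcription (lower panel); the x axis is the distance in kb from the start of Gimap8. Filled points are main and open points other probe sets, dotted lines mark 2-fold, and Gimap7, Gimap1 and Gimap3 stand above 0 in Foxp3-fusion cells while Gimap8, Gimap4, Gimap6 and Gimap3 stand below 0 in GFP- CD25+ cells.

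Foxp3-fusion cells over Foxp3-null cells set GFP+ cells that use the fusion allele beside GFP+ cells that use the knockout allele. Genotype, backcross and array cannot be told apart in this pair. No Gimap gene was at least 2-fold apart on its main probe set, where 9.05% of 7257 measured genes were higher and 8.54% lower. Gimap3 led upward at 1.69-fold and Gimap7 followed at 1.52-fold, while Gimap8 was 1.34-fold lower and Gimap1 1.08-fold lower. The other probe sets of Gimap4 and Gimap7 were 2.68-fold and 5.74-fold higher in Foxp3-fusion cells. The 8-gene median was 0.33 log2, against -0.16 for all measured genes. This pair depended on the scale. With values as deposited all 8 genes were higher in Foxp3-fusion cells, 4 of them at least 2-fold (Gimap9, Gimap6, Gimap7 and Gimap3), and the 8-gene median was 0.97, while the median of all measured genes also went to 0.32. Of all measured genes, 1529 were then at least 2-fold higher and 204 lower, against 657 and 620 on the normalized scale.

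By probe sets, the GFP- CD25+ array was most often the low one for this family. It held the lowest value of 7 of the 11 probe sets, against 3 for the Foxp3-null array, 1 for the GFP- CD25- array and 0 for the Foxp3-fusion array. Over the 6016 genes above the floor on all arrays, the lowest value was on the Foxp3-fusion array for 38.0%, the Foxp3-null array for 18.4%, the GFP- CD25+ array for 19.5% and the GFP- CD25- array for 24.1%. With values as deposited it was lowest for 8 of the 11 probe sets. Probe sets of a gene share its RNA, and the shares over all genes are by main probe set. By main probe sets alone, GFP- CD25+ cells were lowest for 4 of 8 genes, Foxp3-null cells for 3, GFP- CD25- cells for 1 and Foxp3-fusion cells for 0. With values as deposited these counts were 5, 3, 0 and 0, so GFP- CD25+ and Foxp3-null cells were not far apart.

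GFP- CD25+ cells over GFP- CD25- cells compare populations of GFP- thymocytes that were split by CD25. Gimap8 and Gimap6 were at least 2-fold lower on their main probe sets and no member was at least 2-fold higher, against 4.53% lower and 4.26% higher of 6928 measured genes. Gimap3 at 1.95-fold and Gimap4 at 1.82-fold lower were just short of the threshold, and Gimap9, Gimap7 and Gimap5 were higher by 0.29, 0.21 and 0.22 log2. The 8-gene median was -0.56 log2, against 0.11 for all measured genes, and the other probe sets of Gimap4, Gimap6 and Gimap7 were at -2.08, -1.45 and -0.99 log2. With values as deposited Gimap7 and Gimap5 were on the other side of 0, at -0.02 and -0.05 log2.

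Foxp3-fusion cells over GFP- CD25+ cells gave Gimap7, Gimap1 and Gimap3 at least 2-fold higher and no gene at least 2-fold lower, against 11.7% and 8.37% of 7095 measured genes. The 8-gene median was 0.52 log2, against -0.10 for all measured genes, and Gimap9 and Gimap6 were lower by 0.61 and 0.54 log2 in Foxp3-fusion cells on their main probe sets. The other probe set of Gimap6 turned the direction, at 1.62 log2 higher in Foxp3-fusion cells, and those of Gimap4 and Gimap7 were 2.63 and 2.62 log2 higher, so 6 of the 11 probe sets passed 2-fold upward. Foxp3-null cells over GFP- CD25+ cells gave Gimap8, Gimap1 and Gimap3 at least 2-fold higher and Gimap9 at least 2-fold lower, against 8.71% and 7.52% of 7150 measured genes. The 8-gene median there was 0.48 log2, against 0.10 for all. On the other probe sets Gimap4 was 1.21, Gimap6 1.13 and Gimap7 0.10 log2 higher in Foxp3-null cells, where Gimap6 was at -0.97 on its main probe set. These pairs share the GFP- CD25+ array, so their values are not independent of each other.

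**Figure D4:**
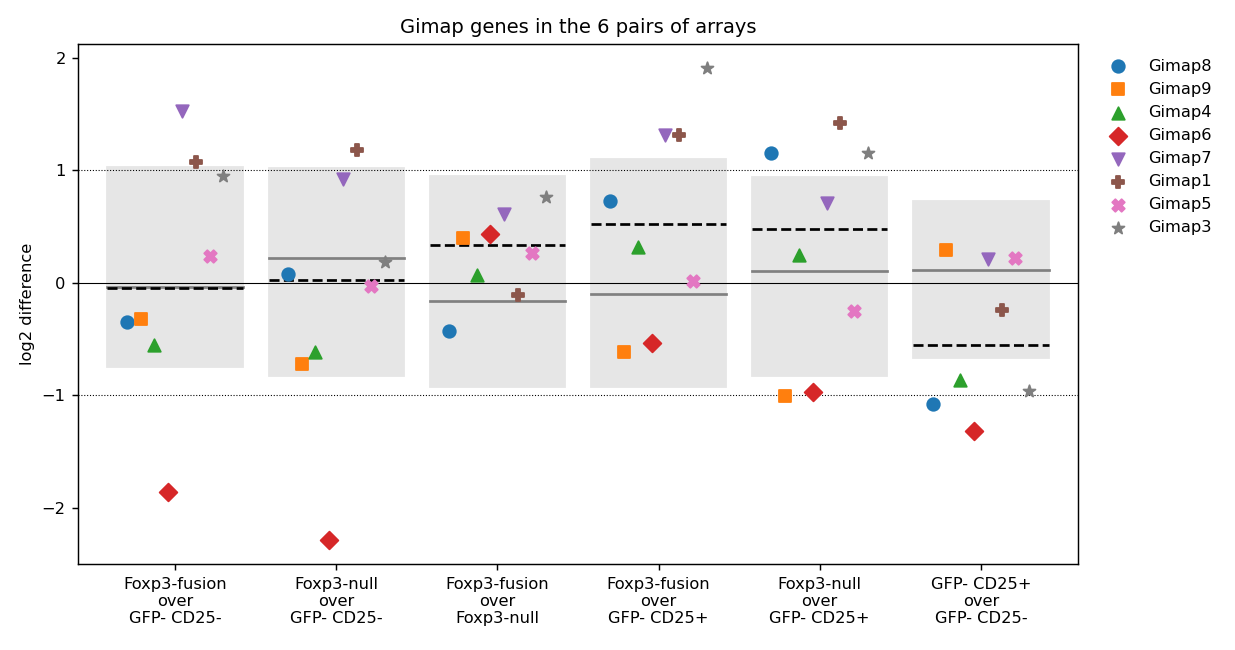
Log2 difference (y axis) of the 8 Gimap genes on their main probe sets in each of the 6 pairs of arrays (x axis). Grey boxes run from the 10th to the 90th percentile of all measured genes with their median as a grey line, the dashed black line is the Gimap median, and dotted lines mark 2-fold; the Gimap median is lowest, at -0.56, for GFP- CD25+ over GFP- CD25- cells.

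Other values were looked at beside those of the GFP- CD25+ array. Of the list of immature thymocyte genes, 8 of the 11 on the array were above the floor in GFP- CD25+ cells, against 7 in GFP- CD25- cells. In GFP- CD25+ over GFP- CD25- cells the 8 measured had a median of -0.47 log2, with 2 past 2-fold upward and 2 downward. Of all measured genes, 4.26% passed 2-fold upward and 4.53% downward in that pair. Cd24a, a surface protein lost as thymocytes mature, was 1.49 log2 higher in GFP- CD25+ than in GFP- CD25- cells, and Dntt, the enzyme that adds bases during receptor gene assembly, was 3.05 log2 higher. Ccr9 and Satb1 were lower there by 2.10 and 1.34 log2, and Sox4, Tox and Themis by 0.38, 0.76 and 0.57 log2, so the list did not move one way. In the same pair the late maturation and egress list had 10 genes measured, with a median of -0.54 log2. Of these 1, Il7r, was at least 2-fold lower and 0 were higher, against the same 4.53% and 4.26% of all measured genes. The same list gave 4 genes past 2-fold upward and 0 downward in Foxp3-fusion over GFP- CD25+ cells, with a median of 0.61 log2. All measured genes gave 11.7% and 8.37% there. In Foxp3-fusion over GFP- CD25- cells it gave 3 upward and 2 downward, with a median of -0.03, against 10.5% and 5.81% of all measured genes. The gap between the 3' and 5' actin control probe sets, which widens as cDNA gets shorter, was 5.22 log2 for Foxp3-fusion, 6.99 for Foxp3-null, 9.27 for GFP- CD25+ and 8.39 for GFP- CD25- cells. The array with the widest actin gap was thus also the one lowest for most Gimap probe sets, at 7 of 11. The GFP- CD25- array had the next widest actin gap and was lowest for 1 of 11. For the Gapdh control probe sets the gap was 4.62 log2 for Foxp3-fusion, 4.92 for Foxp3-null, 6.66 for GFP- CD25+ and 6.45 for GFP- CD25- cells. Both gaps were thus wider on the GFP- than on the GFP+ arrays, the same split of the arrays as for Gimap1. The part of these values in the Gimap differences was not tested.

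Markers of the other cells that use Gimap genes were looked at on the same arrays. All 6 endothelial markers were at or under the floor in every population. Of 5 B cell markers on the array, only Ms4a1 passed the floor, in Foxp3-null and GFP- CD25+ cells. Of 5 NK and NKT cell markers, Nkg7 and Zbtb16 passed it on some arrays, and Ncr1, Klrk1 and Prf1 stayed under it on all. The summed signal of the NK and NKT list was 80.6 in Foxp3-fusion, 98.05 in Foxp3-null, 29.99 in GFP- CD25+ and 130.2 in GFP- CD25- cells on the linear scale. No marker of the list was above the floor in GFP- CD25+ cells, so that sum is background, and the larger sums come from Nkg7 and Zbtb16. Their part in the Gimap differences was not tested. All 6 T cell markers on the array were above the floor in every population, and Cd8a and Cd8b1 were under it, as the sort for CD4+ CD8- cells requires.

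Genes whose 4-array pattern was most like that of the family were searched among 6008 others above the floor on all arrays. The measure was the root mean square distance between log2 values centred on each gene's mean. Nearest to the mean of the 8 genes were Gabarapl2 at 0.03 log2, Itsn2 at 0.03, Sec11a at 0.05, Nars2 at 0.06 and Npc2 at 0.06. The members themselves lay from 0.23 log2 (Gimap4) to 0.86 (Gimap6) from their own mean. These member distances cannot be set against those of the nearest genes, which were picked as the closest of 6008. Nearest to Gimap6 on its main probe set were Fam78a at 0.11 log2, Fkbp1a at 0.12 and Anxa6 at 0.15. Nearest to Gimap3 were Ptprcap at 0.07 log2, Ngrn at 0.08 and Scfd1 at 0.08. These distances rest on 4 arrays and were not tested.

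Gimap proteins have been linked to proteins of the BCL-2 family, which decide cell survival. Of 9 BCL-2 family genes on the array, Bcl2, Bcl2l1, Mcl1 and Bcl2l11 were above the floor in all 4 populations. In Foxp3-fusion over GFP- CD25- cells 5 were measured, of which 0 passed 2-fold upward and 2 downward, against 10.5% and 5.81% of all measured genes. Bcl2, which protects from death, and Bcl2l11, which promotes it, were lower by 1.60 and 2.01 log2. In GFP- CD25+ over GFP- CD25- cells Bcl2 was lower by 1.25 log2 and Bcl2l11 0.67 log2 higher. Mcl1, another survival gene, read 13.45 log2 in Foxp3-fusion, 13.51 in Foxp3-null, 13.37 in GFP- CD25+ and 13.12 in GFP- CD25- cells.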

How the data were processed

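RNA of 4 sorted thymocyte populations was measured, 1 array each, and samples were grouped by their titles. Per the labels' protocols, RNA went through 2 rounds of amplification to biotin-labelled cRNA and onto Affymetrix mouse 430 2.0 arrays. The authors deposited a single value for each probe set on each array, on a logarithmic scale taken as log2 from its range, 0.38 to 15.6; the background correction, summary and normalization behind it are not named in the labels. All 4 value columns were used.

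Array means on the deposited scale ran from 4.16 to 4.22 but 90th percentiles from 7.54 to 8.17, so values were quantile normalized, which assumes equal signal distributions. Control probe sets (64 of 45101) were left out. The annotation gave 1 gene for 34958 probe sets, several for 932 and none for 9211, and symbols were updated through RefSeq, which held 34741 of them. The floor, 4.87 log2 (4.83 as deposited), was set per array at the 90th percentile of silent tissue genes, the highest of the 4 being used; 34 of 40 such genes were found, and the list turned out to hold Mbp, Myh6, Snap25 and Tnp1 with signal above the floor on some array. Lower values were set to the floor, and a gene was measured in a pair when either array exceeded it. Members were named whatever their values, other genes by membership of fixed lists or by nearness of pattern. The members and lists were chosen with earlier results of these data known. Precision is limited by the number of arrays, and no test was possible. Alternatives were the deposited scale, median centring, other floors, other probe set rules and thresholds of 3-fold and 1.5-fold. Python 3.11.15 with numpy 2.4.6 and pandas 2.3.3 was used, and the steps were tested on simulated data.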

Additional observations from a re-analysis of the deposited data

How the results depend on the processing

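Every value rests on 1 array a population, and no alternative replaces replicates. No paired analysis was possible because each population had a single array and no test was made. The median over the Gimap genes stayed within 1.5-fold of its main value under 41 of 42 alternatives. The exception was Foxp3-fusion over Foxp3-null cells with values as deposited, at 0.97 in place of 0.33 log2, where the median of all measured genes went to 0.32 in place of -0.16. Runs with no floor or a floor at the array median left every Gimap difference unchanged, so they are no check here. The 1.5-fold limit also passed changes of sign. With values as deposited, Foxp3-null over GFP- CD25- cells went from 0.02 to -0.29 log2, and Foxp3-fusion over GFP- CD25- cells from -0.04 to 0.24. The latter median was also positive with median centring, at 0.03, and with the median over a gene's probe sets, at 0.12. Without probe sets able to match more than 1 transcript it was 0.40. Foxp3-null over GFP- CD25- cells also turned to -0.01 with the median over a gene's probe sets. The median for Foxp3-fusion over GFP- CD25+ cells rose from 0.52 log2 to past 2-fold under both other probe set rules. None of the 2-fold differences of single Gimap genes on their main probe sets changed sign under any alternative run. However, only for Gimap4 did an alternative put the other probe set in place of the main one, by dropping probe sets able to match more than 1 transcript. None did so for Gimap6 or Gimap7. For Gimap6 in Foxp3-fusion over GFP- CD25- cells the main probe set gave -1.86 log2 and the other 0.17, so there the sign depended on the probe set. On the deposited scale 6 of 48 gene differences changed sign, none of them above 0.43 log2 in size, 9 newly reached 2-fold and 1 left it. Taking the median over a gene's probe sets changed the sign of 4 differences, brought 3 to 2-fold and took 1 below it. Dropping those able to match more than 1 transcript brought 4 to 2-fold, all of them those of Gimap4. It also changed the sign of 1, Gimap4 in Foxp3-fusion over GFP- CD25- cells, from -0.55 to 0.56 log2. Median centring took 2 below 2-fold, Gimap8 in GFP- CD25+ over GFP- CD25- cells at -0.94 and Gimap9 in Foxp3-null over GFP- CD25+ cells at -0.98 log2. The 1 taken below by the median over probe sets was Gimap6 in Foxp3-fusion over GFP- CD25- cells, at -0.84 log2. A floor 1 log2 unit higher left Gimap1 without a value in GFP- CD25+ over GFP- CD25- cells and took 4 differences below 2-fold, all of them those of Gimap1, to 0.73 and 0.84 log2. With 3-fold as the threshold, Gimap6 alone remained in Foxp3-fusion and in Foxp3-null over GFP- CD25- cells, both downward, and Gimap3 alone in Foxp3-fusion over GFP- CD25+ cells. The split of all genes past 2-fold in Foxp3-fusion over GFP- CD25- cells was 64.3% higher, against 80.4% on the deposited scale. For Foxp3-null over GFP- CD25- cells it was 58.2% against 29.1%, for Foxp3-fusion over Foxp3-null cells 51.4% against 88.2%, for Foxp3-fusion over GFP- CD25+ cells 58.2% against 88.0%, for Foxp3-null over GFP- CD25+ cells 53.7% against 42.5%, and for GFP- CD25+ over GFP- CD25- cells 48.4% against 26.2%.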

Other observations

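Another family of GTPases of immune cells, those induced by interferon, was looked at beside the Gimap genes on the same arrays. Its list was chosen with earlier results of these data known, so it is not an independent contrast. In Foxp3-fusion over GFP- CD25- cells, 6 of 9 measured passed 2-fold upward and 0 downward, against 10.5% and 5.81% of all measured genes. Their median was 1.13 log2, whereas the Gimap median was -0.04. Gbp3, a guanylate-binding protein gene, read 10.68 log2 in Foxp3-fusion, 8.02 in Foxp3-null, 7.71 in GFP- CD25+ and 6.96 in GFP- CD25- cells. Irgm2, an immunity-related GTPase gene, read 9.95, 8.91, 7.19 and 7.90 log2 in the same order. In Foxp3-null over GFP- CD25- cells 2 of the 9 passed 2-fold upward and 1 downward, against 10.6% and 7.62% of all measured genes. The median of the 9 was 0.38. The difference between the families was not tested.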
